A study of Homo sapiens with 4 samples.

Results

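The 10 genes CDH1, EPCAM, KRT8, KRT18, KRT20, VIL1, CDX1, CDX2, MUC2 and LGR5 mark epithelial cells and the colon, and were taken by gene symbol from the 26485 gene entries of a small RNA sequencing table. All 10 symbols were in the table. Total small RNA came from HCT116 Drosha k.o. cells, a clone of a human colorectal carcinoma line in which DROSHA, the nuclease that starts miRNA processing in the nucleus, had been knocked out with CRISPR/Cas9. The vector group received the empty lentivirus pLenti, and the CD95L group the same virus carrying CD95L (gene symbol FASLG) behind a CMV promoter. According to the methods, the construct used in HCT116 was a CD95L mutant without receptor binding, in which an early stop codon prevents full-length protein. All cells went through puromycin selection (3 µg/mL) before harvest at 50 h, and each group had 2 libraries. The methods count the 50 h from plating, which came after infection and the start of selection. Where the duplicates parted is not stated, and the spread behind each p-value may therefore be technical. An unexplained mark (# 2) stands in the titles of the vector libraries alone, so a batch and the groups cannot be told apart.

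Epithelial cells hold together through adherens junctions, in which the cadherin of CDH1 binds its like on the next cell, and are braced inside by filaments that pair a type II keratin such as KRT8 with a type I keratin such as KRT18. EPCAM is a further adhesion molecule of the epithelial surface. In the gut the homeobox factors CDX1 and CDX2 set intestinal identity, LGR5 marks the stem cells of the crypt, MUC2 is the main secreted mucin of goblet cells, and KRT20 and the actin bundler VIL1 belong to differentiated cells with a brush border. A small RNA library reads fragments of such mRNAs and not whole mRNAs, so the values below are levels of fragments in CPM (reads per 1000000 reads counted to genes).

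How well a fragment can be counted differed widely between the 10 genes, because KRT8 and KRT18 have been copied into the genome many times. GENCODE 44 lists 68 processed copies of KRT18 and 51 of KRT8 by symbol, and none for the other 8 genes. Exon windows of 25 bases were therefore searched for exact copies on both strands of the 24 hg38 chromosomes. A window was found once, and so could be placed, for 19.8% of the 1245 windows of KRT18 and 20.3% of the 1592 windows of KRT8. In the other windows of both keratins a copy lay elsewhere in the genome. MUC2 differed in kind, since 30.7% of its 11497 windows were repeated within the gene itself and 69.3% were found once. The share found once was 92.8% for CDH1, 93.2% for EPCAM, 99.3% for CDX2, 99.8% for VIL1 and 100% for KRT20, CDX1 and LGR5. The most copied coding window of KRT18 and the most repeated exon window of MUC2 are printed here with 15 flanking bases on each side, because reads from them cannot be assigned to 1 place. Capitals mark the window.
KRT18: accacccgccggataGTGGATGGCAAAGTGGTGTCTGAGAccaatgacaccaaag
MUC2: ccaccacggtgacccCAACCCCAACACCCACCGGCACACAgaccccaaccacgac
The KRT18 stretch lies at chr12:52952774-52952828 on the plus strand, and its window was found 29 times, 28 of them outside the gene. The MUC2 stretch lies at chr11:1095816-1095870 on the plus strand, and all 41 copies of its window lay within MUC2, whose coding region carries tandem repeats. By the usual rules of HTSeq, the counting program named for these data, a read that maps to several places is not counted, though the sources used here do not give the setting. The part of such reads in the values was not tested.

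**Figure D1:**
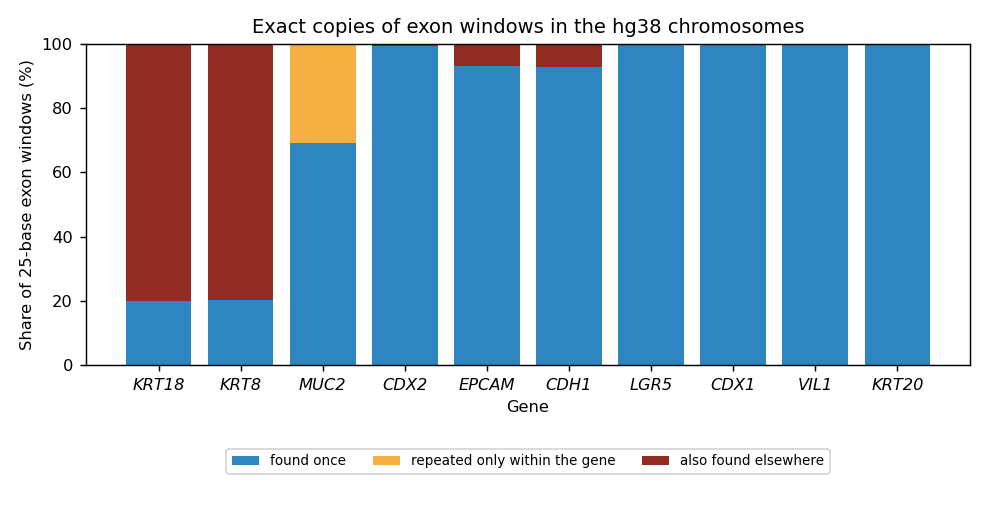
Share of 25-base exon windows (%, y axis) of each of the 10 genes (x axis, by falling mean CPM) that occur once in the hg38 chromosomes, are repeated only within the gene, or are also found elsewhere. KRT18 and KRT8 have 19.8% and 20.3% of their windows found once, MUC2 69.3%, and the other 7 genes at least 92.8%.

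Libraries held 22488145 to 25163566 gene reads, and 3 reads corresponded to 0.119 to 0.133 CPM. FASLG fragments followed the labels, with 1.16 and 2.94 CPM in vector cells against 94.9 and 90.5 CPM in CD95L cells. For DROSHA, knocked out in both groups, 10.1 to 13.6 CPM was read in the 4 libraries, which does not check the labels. FASLG was the only gene of 16127 tested that passed the threshold (limma on log2(CPM + 1), adjusted p = 3.55e-05), a background of 0.0062% of genes called. In bulk RNA, fewer cells of a type and less RNA per cell cannot be told apart.

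None of the 10 genes passed the test between CD95L and vector cells. Of the 10, 8 averaged 1 CPM or more and were tested, while KRT20 and VIL1 lay below that level and are given as values. By limma 0 of the 8 had an adjusted p below 0.05 and 0 an unadjusted p below 0.05, beside 5.38% of all genes tested. edgeR on the recovered reads tested 9 of them and called 0, beside 0.366% of all genes. At an unadjusted p below 0.05 edgeR had 1 of the 9 (MUC2), beside 6.13% of all genes. DESeq2 called 0 of 10, beside 0.203% of all genes with an adjusted p. At an unadjusted p below 0.05 it also had 1 (MUC2), beside 3.65% of all genes with a p. The differences ran from -0.21 to 0.53 on the log2(CPM + 1) scale, a scale that understates the change of low genes. Their median was 0.02, beside -0.01 over all genes tested, and 5 of the 8 were positive, beside 49.2% of all genes tested.

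The keratin pair KRT8 and KRT18 carried most of the reads of these genes. KRT18 (chromosome 12, 52948871 to 52952906, hg38, plus strand) had 61.5 and 56.4 CPM in the vector libraries and 52.8 and 52.8 CPM in the CD95L libraries. Both CD95L libraries lay below both vector libraries, and the gene ranked 654 of 26485 by its mean. The difference of -0.15 ± 0.24 (SE) had a 95% interval from -0.69 to 0.38 (limma, adjusted p = 0.966), and it was -0.09 without vector replicate 1. KRT8 (chromosome 12, 52897187 to 52949954, minus strand), its partner in the filament, lies beside it in the genome and had 55.1 and 58.1 CPM in vector and 53.0 and 45.0 CPM in CD95L cells. CD95L replicate 2 was the lowest of the 4 libraries, and the other CD95L library lay just below the vector libraries. The difference of -0.21 ± 0.25 (SE) had an interval from -0.75 to 0.33 (limma, adjusted p = 0.954). When libraries were rescaled by TMM factors the KRT8 groups overlapped, at 53.4 and 60.1 against 56.6 and 42.1 CPM, while those of KRT18 stayed apart. Without CD95L replicate 2 the KRT8 difference was -0.09, and without CD95L replicate 1 it was -0.33. Of the 10 genes 5 had groups that did not overlap, 2 with CD95L above and 3 below. Among the 8 tested genes, which leave out KRT20, CD95L lay above in 2 and below in 2. Groups that did not overlap were common, at 35% of all genes tested, with CD95L above in 16% and below in 19%.

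The 2 keratins together took 74.8 to 83.9% of the reads of the 10 genes. KRT8 stood at 0.896 and 1.03 times KRT18 in the vector libraries and at 1.00 and 0.852 times in the CD95L libraries. The ratio overlapped between the groups, with CD95L replicate 2 the lowest. The CPM of both keratins together was 117 and 114 in vector and 106 and 97.7 in CD95L cells. Of the processed copies, the table held 1 entry for each keratin. KRT18P55 had 25, 11, 17 and 6 reads and KRT8P41 4, 0, 1 and 6 reads, in the order vector replicates 1 and 2 and CD95L replicates 1 and 2. These counts were small beside the 1187 to 1533 reads of KRT18 and the 1011 to 1463 reads of KRT8. A further limit is that GENCODE annotates an exon of KRT8 across 375 bases of the KRT18 transcript on the opposite strand, and whether counting used strand is not given in the sources used here.

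**Figure D2:**
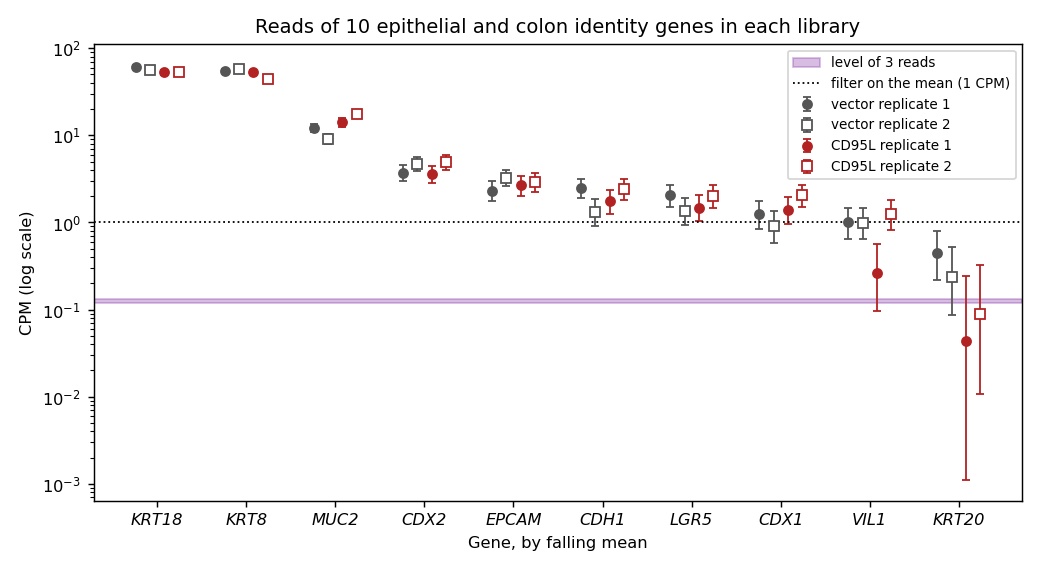
CPM (log scale, y axis) of the 10 genes (x axis, by falling mean) in the 2 vector libraries (grey) and the 2 CD95L libraries (red), with exact 95% Poisson intervals that cover counting error only. KRT18 and KRT8 lie between 45.0 and 61.5 CPM, MUC2 between 9.18 and 17.4 CPM, and KRT20 lies below the level of 3 reads in both CD95L libraries.

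MUC2 was the tested gene with the largest difference. This mucin (chromosome 11, 1074875 to 1110511, plus strand) had 12.2 and 9.18 CPM in vector and 14.1 and 17.4 CPM in CD95L cells, from 303, 231, 322 and 392 reads. Each CD95L library exceeded each vector library, and the exact 95% counting intervals of vector replicate 1 (10.8 to 13.6 CPM) and CD95L replicate 1 (12.6 to 15.7 CPM) met. The means of 10.7 ± 2.11 and 15.7 ± 2.38 CPM (SD, n = 2) gave a ratio of 1.48. On the log2 scale the difference was 0.53 ± 0.26 (SE), with an interval from -0.04 to 1.10, and it did not pass (limma, adjusted p = 0.923). The replicates of each group differed by more than counting error, and leaving out vector replicate 2 took the difference to 0.34, leaving out vector replicate 1 to 0.71. It stayed positive under each alternative run, with an adjusted p from 0.49 to 1.00. CD95L replicate 2, the library with the highest MUC2, was also the one with the lowest KRT8, and the ratio of MUC2 to KRT8 was 0.221 and 0.158 in vector and 0.265 and 0.388 in CD95L cells.

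The intestinal homeobox genes differed from each other in level. CDX2 (chromosome 13, 27960918 to 27969315, minus strand), which directs the intestinal programme, had 3.73 and 4.73 CPM in vector and 3.58 and 4.89 CPM in CD95L cells. The groups overlapped almost wholly, with means of 4.23 ± 0.70 and 4.24 ± 0.93 CPM (SD, n = 2). The difference was -0.003 ± 0.26 (SE), with an interval from -0.57 to 0.56 (limma, adjusted p = 0.999), and it turned without vector replicate 2 (0.13) or CD95L replicate 1 (0.18). CDX1 (chromosome 5, 150166778 to 150184558, plus strand), its close relative, had 1.24 and 0.914 CPM in vector and 1.40 and 2.05 CPM in CD95L cells. Each CD95L library exceeded each vector library, though CD95L replicate 1 (32 reads) was hardly above vector replicate 1 (31 reads). The difference of 0.38 ± 0.26 (SE) had an interval from -0.18 to 0.94 (limma, adjusted p = 0.923). It was 0.21 without CD95L replicate 2, and for this low gene 0.62 with a pseudocount of 0.1, 0.67 by edgeR and 0.66 by DESeq2. CDX2 exceeded CDX1 in CPM per kb of transcript, at 1.23 against 0.789 on the mean of the 4 libraries.

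The adhesion genes were read at a few CPM in every library. EPCAM (chromosome 2, 47345158 to 47387601, plus strand) had 2.33 and 3.26 CPM in vector and 2.66 and 2.89 CPM in CD95L cells. The CD95L libraries lay within the range of the vector libraries, and the difference was 0.004 ± 0.25 (SE), with an interval from -0.55 to 0.56 (limma, adjusted p = 0.999), and it turned without vector replicate 1 (-0.17) or CD95L replicate 2 (-0.04). CDH1 (chromosome 16, 68737292 to 68835537, plus strand), the epithelial cadherin, had 2.49 and 1.31 CPM in vector and 1.75 and 2.40 CPM in CD95L cells, from 62, 33, 40 and 54 reads. The vector libraries lay on either side of both CD95L libraries. The difference was 0.11 ± 0.28 (SE), with an interval from -0.50 to 0.72 (limma, adjusted p = 0.978), and it turned without vector replicate 2 (-0.19) or CD95L replicate 2 (-0.05).

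LGR5, the receptor that marks crypt stem cells, showed overlapping groups. It lies on chromosome 12 (71439798 to 71586310, plus strand) and had 2.05 and 1.35 CPM in vector and 1.48 and 2.00 CPM in CD95L cells, from 51, 34, 34 and 45 reads. Each group held 1 higher and 1 lower library. The difference was 0.03 ± 0.26 (SE), with an interval from -0.54 to 0.60 (limma, adjusted p = 0.997), and it turned without vector replicate 2 (-0.16) or CD95L replicate 2 (-0.11).

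The differentiation genes VIL1 and KRT20 were the scarcest. VIL1 (chromosome 2, 218419121 to 218453295, plus strand), the actin bundler of the brush border, had 1.00 and 0.993 CPM in vector and 0.262 and 1.25 CPM in CD95L cells. CD95L replicate 1, with 6 reads, stood apart from the other libraries, with 25 to 28 reads. The difference of -0.25 on the log2 scale, which was not tested in the main comparison, became 0.17 without that library and -0.66 without the other CD95L library. VIL1 shares 3045 bases of exon with USP37 on the opposite strand. KRT20 (chromosome 17, 40875889 to 40885242, minus strand), a keratin of mature surface cells, had 0.441 and 0.238 CPM in vector and 0.0437 and 0.0889 CPM in CD95L cells. These values rest on 11 and 6 reads against 1 and 2 reads, and both CD95L libraries lay below both vector libraries. Over the reads of each group, 17 against 3, KRT20 was 0.195 times as frequent in CD95L cells, with an exact 95% interval from 0.0366 to 0.673 that covers counting error only. Such an interval was computed for KRT20 alone, the gene with the lowest ratio of these genes, and leaves out the spread between libraries. With no filter on low genes limma gave it a difference of -0.33 (adjusted p = 0.887), and DESeq2 gave -2.38 (adjusted p = 0.999).

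**Figure D3:**
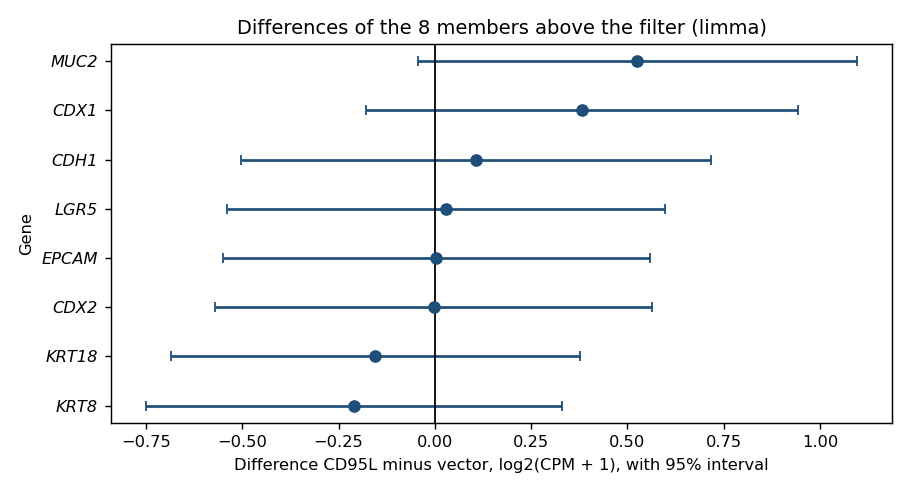
Difference between CD95L and vector libraries (x axis, CD95L minus vector on the log2(CPM + 1) scale) of the 8 tested genes (y axis), with 95% intervals from limma over 2 libraries per group. Differences run from -0.21 for KRT8 to 0.53 for MUC2 and each interval includes 0.

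Per kb of transcript the 2 keratins stood far above the other genes. The order of mean CPM per kb was KRT18 (39.5), KRT8 (29.6), EPCAM (1.80), CDX2 (1.23), MUC2 (1.04), CDX1 (0.789), CDH1 (0.413), LGR5 (0.376), VIL1 (0.135) and KRT20 (0.113). Over the 4 libraries the ranges of KRT18, KRT8 and EPCAM did not overlap those of the next gene, nor did that of LGR5 overlap that of VIL1. The ranges of CDX2 and MUC2, MUC2 and CDX1, CDX1 and CDH1, CDH1 and LGR5, and VIL1 and KRT20 overlapped. Compared within each library, MUC2 exceeded CDX1 and CDX1 exceeded CDH1 in all 4. CDX2 exceeded MUC2, CDH1 exceeded LGR5 and VIL1 exceeded KRT20 in 3 of the 4, so that the order within these pairs is not set. Scaled to windows found once in the genome in place of length, the keratins stood further above the rest, and MUC2 moved ahead of CDX2. This scaling holds only if reads that map to several places were not counted, a setting the sources used here do not give. If such reads were counted, the scaling overstates the keratins and MUC2, so it does not settle their place in the order. The length of MUC2, 12667 bases over 49 exons, was taken from its longest annotated transcript, because the transcript marked canonical is partial.

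The 10 genes were set beside genes that belong to other tissues, by CPM per kb. Of 28 such genes with a known transcript length (a list of 29, among them genes of liver, muscle, nerve, blood and lung), 1 exceeded KRT18 and KRT8 in CPM per kb. The list also holds further keratins, so it is not free of epithelial genes. In CPM per kb, 4 exceeded EPCAM, 6 exceeded CDX2 and MUC2, 7 exceeded CDX1, 16 exceeded CDH1 and LGR5, and 26 exceeded VIL1 and KRT20. The gene above both keratins was NEFL, a neurofilament gene, at 356 CPM per kb. MYH7, a cardiac myosin gene (98.5 CPM on average), and ALB, the gene of liver albumin (29.4 CPM), also had more reads than CDH1, EPCAM or LGR5. The median of the list was 0.502 CPM per kb and that of the 10 identity genes 0.916 CPM per kb. Thus KRT8 and KRT18 lay above all of these genes but NEFL, while the other identity genes lay within the range of the list. Of those, EPCAM, CDX2, MUC2 and CDX1 lay above the median of the list and CDH1, LGR5, VIL1 and KRT20 below it.

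**Figure D4:**
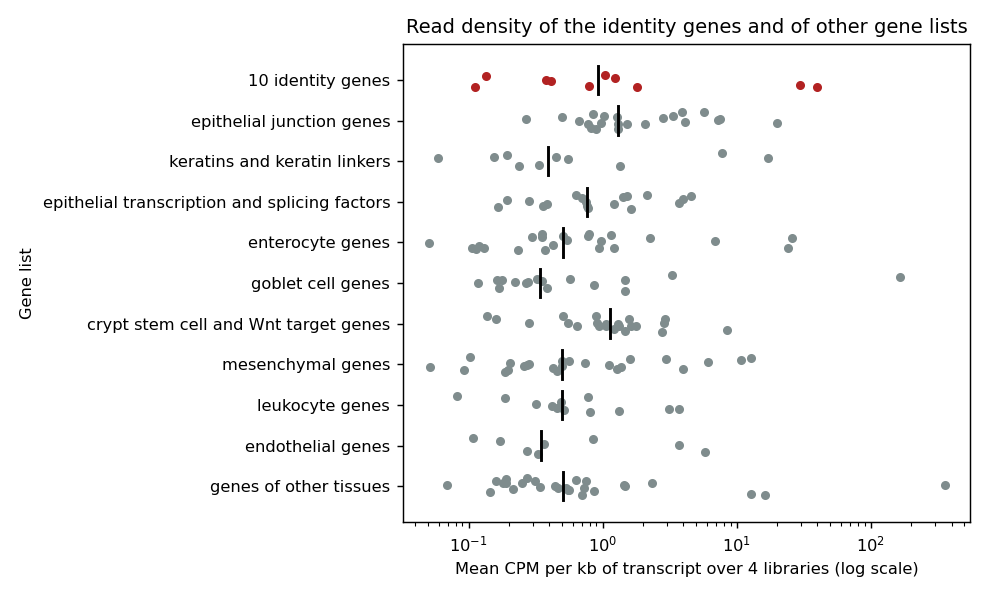
Mean CPM per kb of transcript over the 4 libraries (log scale, x axis) for the 10 identity genes (red) and the genes of 10 other lists (grey, y axis), with the median of each list as a black bar. KRT18 and KRT8 lie at 39.5 and 29.6 CPM per kb, and the other 8 identity genes spread over the same range as genes of other tissues, of which INS, listed at 0, and 1 gene without a length are not drawn.

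None of the genes in lists related to these 10 passed the limma test. Of 22 genes of epithelial junctions all 22 were tested, with 10 positive and 12 negative (median difference -0.02). CLDN1, a claudin of tight junctions, had 74.3, 73.9, 50.6 and 75.5 CPM in the order vector replicates 1 and 2 and CD95L replicates 1 and 2. CTNND1, the catenin that binds the cadherin tail, averaged 48.7 CPM and the desmosomal plakin DSP 39.6 CPM. Among other keratins and keratin linkers 6 of 10 were tested, with 5 positive and 1 negative (median 0.17). KRT19, another type I keratin of simple epithelia, had 8.39, 11.7, 11.5 and 11.5 CPM, and PLEC, which ties filaments to junctions, 278, 256, 241 and 240 CPM in the same order. KRT10, a keratin of the epidermis, averaged 2.89 CPM.

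Of 23 enterocyte genes 15 were tested, with 7 positive and 8 negative (median -0.03). CDHR5, a protocadherin of the brush border, had 92.3 and 96.6 CPM in vector and 63.9 and 70.7 CPM in CD95L cells, groups that did not overlap (difference -0.48 ± 0.24 (SE), limma, adjusted p = 0.923). EZR, the linker of membrane and actin in microvilli, averaged 78.8 CPM and ESPN, another actin bundler, 7.95 CPM. Of 16 goblet cell genes 10 were tested, with 7 positive and 3 negative (median 0.16). TFF3, a peptide secreted with mucin, had 144 and 149 CPM in vector and 89.5 and 194 CPM in CD95L cells, so that the CD95L libraries lay on either side. The mucin genes MUC5B and MUC12 averaged 59.3 and 9.30 CPM. Of 22 crypt stem cell and Wnt target genes 20 were tested, with 12 positive and 8 negative (median 0.04). SOX9, a transcription factor of the crypt, averaged 33.3 CPM, NKD1, a Wnt antagonist, 18.1 CPM and the surface protein CD44 15.6 CPM. Of 18 epithelial transcription and splicing factors 15 were tested, with 6 positive and 9 negative (median -0.01). GRHL2, a factor that maintains epithelial junctions, had 28.5, 22.9, 1.57 and 30.4 CPM, with CD95L replicate 1 far below the other libraries. KLF4, a factor of differentiated epithelium, averaged 13.5 CPM and the splicing factor ESRP2 12.6 CPM.

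Genes of other cell types were read in all libraries. The summed level of 24 mesenchymal genes ran from 109 to 124 CPM in vector and from 117 to 128 CPM in CD95L cells, with VIM at 27.4 CPM, TWIST1 at 17.6 CPM and COL1A1 at 17.6 CPM on average. Of these genes 18 were tested, with 11 positive and 7 negative (median 0.19). The 12 leukocyte genes summed to 22.1 and 20.4 CPM in vector replicates 1 and 2 and to 23.3 and 33.0 CPM in CD95L replicates 1 and 2. These groups did not overlap, as was so for 35% of all single genes tested, and the sum was not tested. All 7 genes tested were positive (median 0.35), beside 49.2% of all genes tested, and limma called 0 of them. CD68, a lysosomal protein of macrophages, averaged 6.33 CPM, the B cell gene MS4A1 4.68 CPM and the T cell gene CD3E 4.25 CPM. The 8 endothelial genes summed to 74.2 to 80.2 CPM in vector and to 58.0 to 91.1 CPM in CD95L cells, led by VWF (50.9 CPM), EMCN (14.6 CPM) and TEK, a receptor gene with 3.41 and 3.54 CPM in vector and 3.84 and 5.20 CPM in CD95L cells. Of the 6 tested, 2 were positive and 4 negative (median -0.10). The genes of other tissues summed to 1455 to 1708 CPM in vector and 1198 to 1427 CPM in CD95L cells, and the sum was not tested. Most of it was NEFL, with 1510 and 1303 CPM in vector and 1043 and 1242 CPM in CD95L cells (limma, adjusted p = 0.932). Groups that did not overlap were found for 35% of all single genes tested. In this list 8 of 16 tested genes were positive (median 0.01). INS was the only listed gene at 0 in all libraries. Whether such reads come from mRNA of these genes was not tested.

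Over the 10 lists, limma called 0 of 135 genes tested, with 6 at an unadjusted p below 0.05, beside 5.38% of all genes tested. edgeR and DESeq2 each called 1, beside 0.366% and 0.203% of all genes. That gene was the collagen gene COL1A2, which is named here after its values were seen. COL1A2 had 4.58 and 4.97 CPM in vector and 11.1 and 11.9 CPM in CD95L cells (limma, adjusted p = 0.355).

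The patterns of KRT8, KRT18 and MUC2 over the 4 libraries were compared with those of other genes. Likeness was taken as the root mean square distance between centred log2(CPM + 1) values, over 4323 genes averaging 10 CPM or more. Nearest to KRT8 was DDX3X, at 80.7, 86.5, 77.7 and 66.0 CPM (distance 0.01), nearest to KRT18 was PPDPF, at 16.5, 15.1, 14.1 and 14.1 CPM (distance 0.002), and nearest to MUC2 was NCR2, at 16.2, 11.6, 18.1 and 22.4 CPM (distance 0.03). Within a distance of 0.1 lay 457 genes for KRT8, 870 for KRT18 and 31 for MUC2.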

How the data were processed

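Total RNA was extracted with the miRNeasy kit and made into libraries with the Illumina small RNA kit. The authors trimmed reads with TrimGalore, aligned them to hg38 with TopHat (the submitters' processing notes also name Bowtie2), counted reads per gene with HTSeq and deposited CPM for 4 libraries; their versions and the gene annotation are not given in the sources used here. A further 4 deposited columns, the authors' own comparison (average CPM on the log2 scale, log2 fold change, p and adjusted p), were not used. Each library sums to 1000000, 100% of values are whole multiples of 1 read (within 0.01), and reads were recovered on that basis.

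The main test was limma 3.58.1 (R 4.3.3) on log2(CPM + 1) for genes averaging 1 CPM or more, fitted by group alone, with Benjamini-Hochberg adjustment over all 16127 genes. P-values were two-sided, with a threshold of 0.05. edgeR 4.0.16 and DESeq2 1.42.0 on recovered reads, other pseudocounts, scalings and filters, a replicate block and leaving out each library were alternatives. On simulated counts for this comparison (15983 genes tested) limma recovered 10% of the 2-fold, 84% of the 4-fold and 98% of the 16-fold and 32-fold changes, and made 5 false calls. Each fold was planted in 50 genes, and so many true changes ease the adjusted threshold, whereas the data had 1 gene called. The planted genes had higher means than CDH1, LGR5, CDX1, VIL1 and KRT20, so these shares do not give the power for those genes. Intervals and floors cover counting error only. Coordinates and transcript lengths are from GENCODE 44 (canonical transcript, MUC2 excepted), and sequences from the hg38 genome. A further sequence is not reported here. All members were named, and of each other list the 3 genes with the highest mean CPM. The members and lists were chosen with earlier results of these data known.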

Additional observations from a re-analysis of the deposited data

How the results depend on the processing

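None of the 10 genes was called under any alternative run (109 fits with an adjusted p, the lowest 0.49, for MUC2 without CD95L replicate 1), and KRT8, KRT18, CDX1 and MUC2 kept their direction in all 13 alternatives each. The sign of genes near 0 turned for EPCAM with DESeq2 size factors (-0.0045), edgeR (-0.0131) and DESeq2 (-0.0259). Without 1 library in turn, CDH1 ranged from -0.19 to 0.40, EPCAM from -0.17 to 0.18, CDX2 from -0.18 to 0.18 and LGR5 from -0.16 to 0.22. The summed level of the 10 genes was 136 and 142 CPM in the vector group and 131 CPM in both CD95L libraries, and the groups overlapped with TMM factors.

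Over all genes limma called 1, and 0 with a pseudocount of 0.1 or no filter, 28 with TMM factors, 31 with DESeq2 size factors, 29 with a mean-variance trend and 9 to 79 without 1 library (79 without vector replicate 2). edgeR called 72 and DESeq2 46. With the replicate block limma called 80. Same-numbered libraries did not deviate together (correlation -0.002 over 16127 genes). Counting noise of low genes draws such a correlation to 0, so it cannot decide whether the numbers pair the libraries. With 2 libraries per group, fewer than 70 reads per gene limit what can be seen for LGR5, CDH1, CDX1, VIL1 and KRT20.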
